A study of Mus musculus with 8 samples.

Results

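The Slc25a genes encode the mitochondrial carrier family, and 47 of the 21252 genes named on the array carry such a symbol. They were selected by name alone, from the probe name or the RefSeq accession in the array files, which gave 108 of 149782 non-control probes. Of the 47 genes, 40 were measured, meaning that 4 or more of the 8 arrays showed some probe of the gene well above background. In all, 13913 genes were measured.

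RNA came from the livers of 8 male mice, 1 mouse on each array: 4 control animals, and 4 animals of the model group given oxaliplatin by intraperitoneal injection once a week for 6 weeks. The platinum compound oxaliplatin is given to patients with cancer of the bowel, and the series uses the treated animals to model an injury of the liver's sinusoids, hepatic sinusoidal obstruction syndrome. Strain, age and dose are not given in the sources used here. Total RNA of whole liver was labelled with Cy3 and hybridised to Agilent one-colour arrays. Because the sample is bulk tissue, fewer cells of a type and less RNA per cell cannot be told apart.

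Mitochondrial carriers span the inner mitochondrial membrane and move nucleotides, keto acids, amino acids, cofactors and inorganic ions between the cytosol and the matrix. They are encoded in the nucleus, made in the cytosol and imported through the outer membrane pore and a dedicated inner membrane translocase. In hepatocytes they connect fatty acid oxidation, the urea cycle, gluconeogenesis and ATP export with the rest of the cell.

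Some measurements concern the arrays rather than the genes. Each group was scanned on a slide of its own, so slide, scan and treatment cannot be told apart. Oxaliplatin replicates 1 and 2 also carry another run name than the other 6 arrays, and differences within the first run name (4 control arrays against oxaliplatin replicates 3 and 4) are given beside the called genes below. The share of probes well above background was 27.2% to 40.9% per array. Control replicate 4 correlated with the other controls at 0.961 to 0.980 across genes, against 0.984 to 0.989 among those 3. It was the lowest control for 21 of the 40 measured Slc25a genes (52.5%), against 38.9% of all measured genes. The Slc25a genes varied more among controls (median SD 0.37) than among oxaliplatin arrays (median SD 0.17), while the medians over all measured genes were 0.23 and 0.18. The part of control replicate 4 in the differences below was not tested except by leaving it out.

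The probes of a gene overlap to different degrees. For Slc25a30, the gene with the largest rise in the family, and Slc25a20, the gene whose probes differed most, the first 30 of 60 bases of each kept probe are shown 5′ to 3′ as the files give them. Capitals mark the bases that lie in a stretch shared with another probe of the same gene, over its whole length.
Slc25a30, brightest probe: TTCACTTACAGTAAGACTCGACCTTTGTGA
Slc25a30, custom probe: tTTCACTTACAGTAAGACTCGACCTTTGTG
Slc25a30, other catalogue probe: cagctattgctaatccgactgatgttttga
Slc25a20, custom probe (brightest): gcacattctttccccatgagagcactcagt
Slc25a20, catalogue probe: taatggtttcagagatgtgttgagagagct

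The brightest and the custom probe of Slc25a30 are the same sequence moved by 1 base and share 59 bases, so they are close to a repeat of 1 measurement. The other catalogue probe of Slc25a30 shares no stretch with them. On build mm9, as the files give it, the brightest probe lies on the minus strand at chr14:76161882-76161941, and the other catalogue probe is placed at chr14:76169441-76170009, a range wider than its 60 bases. The Slc25a20 probes share no stretch of 20 bases, and the catalogue probe lies on the plus strand at chr9:108585399-108585458 on mm9. Custom probes have no coordinates in the files, and no annotation of that build was used to place probes in exons or UTRs.

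In the family 4 of 40 genes rose past the threshold and 6 fell, while 6.99% of all measured genes rose and 11.6% fell. The rising genes were Slc25a30, Slc25a20, Slc25a45 and Slc25a42, and the falling genes were Slc25a27, Slc25a29, Slc25a48, Slc25a32, Slc25a40 and Slc25a38. The carriers that exchange ADP for ATP, import phosphate, and move citrate, malate and oxoglutarate did not pass. Levels are log2 processed signals after subtracting the 75th percentile of the array. A difference is the oxaliplatin mean less the control mean, with its SE from limma, and called means a Benjamini-Hochberg adjusted p under 0.05 over the 13913 measured genes.

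In all, 10 of 40 Slc25a genes were called (25%), against 18.6% of all measured genes. This share lies near the background and is no result about the family as a whole. The groups did not overlap for 12 of the 40 (30%), against 27.7% of all measured genes. The median difference of the family was -0.07, against -0.09 over all measured genes, with 22 differences below 0 and 18 above. Of the 40 genes, 4 were called and at least 2-fold, against 4.16% of all measured genes, and 15 differed by less than 0.2 in either direction.

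**Figure D1:**
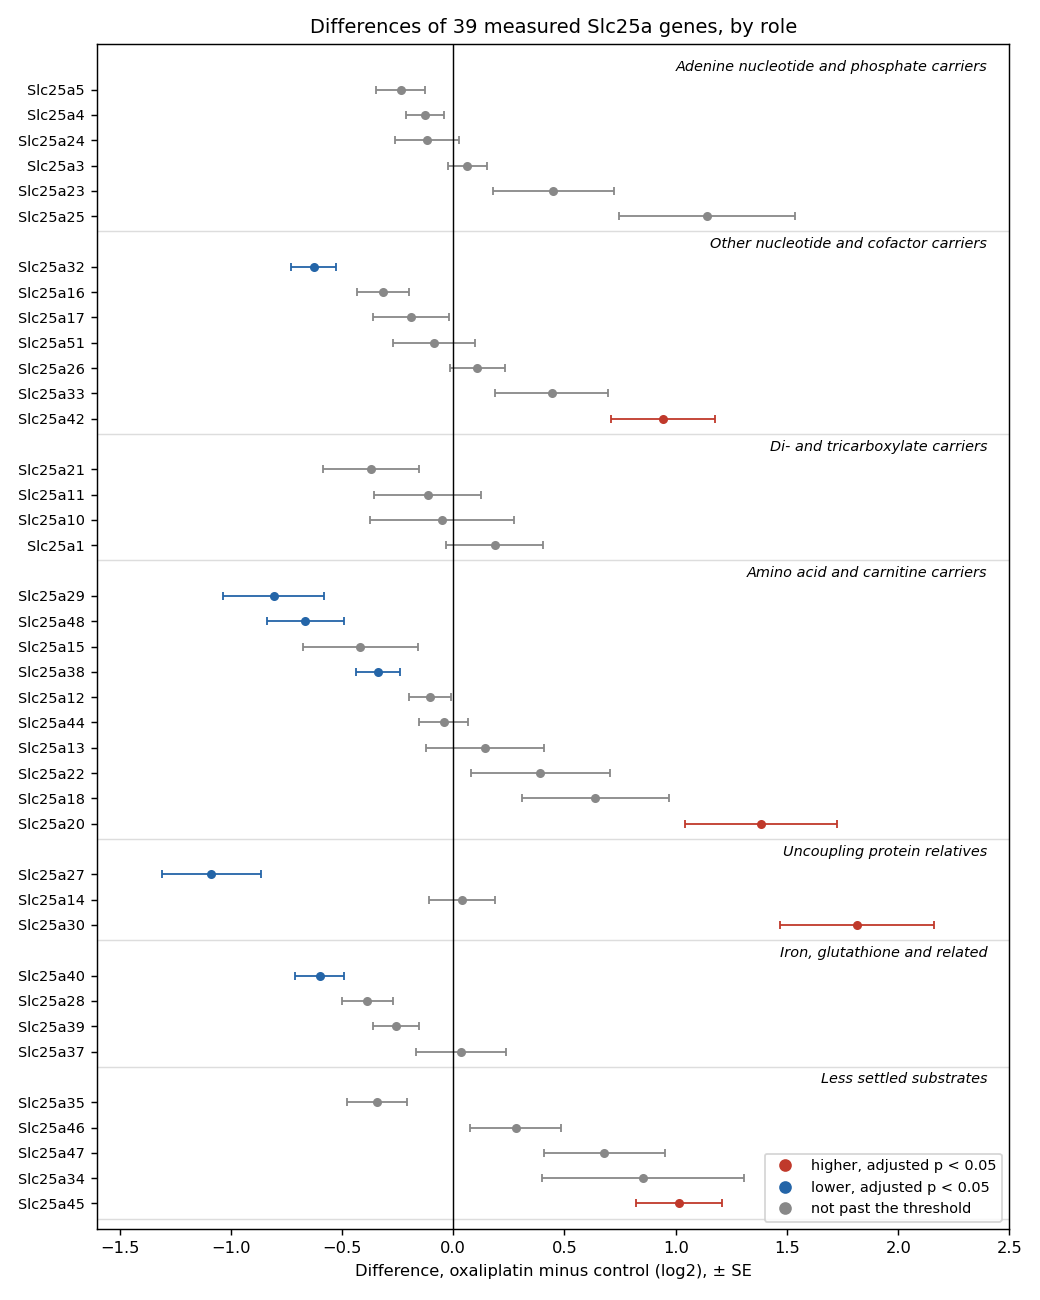
Difference between oxaliplatin and control livers (log2, horizontal axis) for 39 of the 40 measured Slc25a genes, grouped by role, with 4 arrays per group; points are differences, bars are SE, and red and blue mark genes called higher or lower. The 4 called rises span 0.94 to 1.82, the 6 called falls span -1.09 to -0.34, and the called genes are spread over 5 of the 7 roles.

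Among the adenine nucleotide and phosphate carriers, 6 of 9 were measured and none was called. Slc25a5, the adenine nucleotide translocase that is common in liver, stood at 9.10, 9.33, 9.42 and 9.17 on control arrays and at 8.89, 9.03, 8.98 and 9.17 on oxaliplatin arrays. The difference of -0.24 ± 0.11 had an adjusted p of 0.161 (limma), and the groups overlapped at their edges. With quantile normalization it was -0.34 with an adjusted p of 0.031, past the threshold. These values are those of the brightest probe. The other Slc25a5 probe, which shares no stretch with it, differed by -0.04 (limma adjusted p 0.831 over all probes). That probe was also well above background on all 4 arrays of each group. Slc25a4, the translocase form of heart and muscle, read 5.05, 5.21, 5.25 and 5.19 in controls and 5.11, 5.03, 4.98 and 5.07 after oxaliplatin. Its difference of -0.13 had a 95% interval of -0.33 to 0.07.

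Slc25a3, the phosphate carrier that supplies ATP synthase, was the steadiest of these genes across arrays. It read 6.34, 6.51, 6.31 and 6.27 in controls and 6.43, 6.40, 6.38 and 6.46 after oxaliplatin, a difference of 0.06 with an interval of -0.14 to 0.27. The calcium-regulated ATP-Mg/phosphate carriers Slc25a23, Slc25a24 and Slc25a25 set the adenine nucleotide content of the matrix. Slc25a25 differed by 1.14 ± 0.40 (adjusted p 0.078), with a control SD of 0.91 against an oxaliplatin SD of 0.14. Control replicate 2 (7.94) lay inside the oxaliplatin range of 7.66 to 7.95 while the other controls lay below it. Without that array the difference was 1.55 and the adjusted p 0.010. Slc25a23 (0.45) and Slc25a24 (-0.12) did not pass.

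Among the other nucleotide and cofactor carriers, 8 of 9 were measured, with Slc25a42 higher and Slc25a32 lower. Slc25a42 exchanges coenzyme A for adenine nucleotides and so feeds the matrix pool that fatty acid oxidation draws on. It read 6.84, 7.25, 6.51 and 6.06 in controls and 7.49, 7.66, 7.75 and 7.54 after oxaliplatin. Each oxaliplatin array was above every control array, and control replicate 4 was the lowest. The rise was 0.94 ± 0.23, or 1.92-fold (limma adjusted p 0.029). Both Slc25a42 probes, which share no stretch of 20 bases, were called, at 0.94 and 0.71. The call was lost without control replicate 3 or without any 1 of the 4 oxaliplatin arrays (0.89 to 0.98, adjusted p 0.054 to 0.078), and within the first run name the difference was 0.98 with an adjusted p of 0.134.

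Slc25a32 is known as a carrier of folate and of flavin adenine dinucleotide. It read 3.12, 3.41, 3.19 and 3.41 in controls and 2.70, 2.58, 2.63 and 2.70 after oxaliplatin. The groups were separate, and the fall of 0.63 (SE 0.10, 1.55-fold, limma adjusted p 0.008) had the smallest adjusted p in the family. Its probe lies on the minus strand at chr15:38926713-38926772 on mm9, and its only other probe was well above background on none of the arrays. Within the first run name the difference was -0.62 with an adjusted p of 0.065.

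The other cofactor carriers lay closer to 0. Slc25a51, which brings NAD into mitochondria, read 4.45, 4.50, 4.51 and 5.21 in controls and 4.70, 4.37, 4.54 and 4.71 after oxaliplatin. Control replicate 4 stood above all others, the other 7 arrays of both groups lay between 4.37 and 4.71, and the difference was -0.08 ± 0.18, or 0.10 without control replicate 4. Slc25a16, linked to the coenzyme A supply of the matrix, differed by -0.32 (adjusted p 0.091), and the pyrimidine nucleotide carrier Slc25a33 by 0.44 (adjusted p 0.245). The peroxisomal carrier Slc25a17 and the S-adenosylmethionine carrier Slc25a26 differed by -0.19 and 0.11, and neither passed.

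All 4 di- and tricarboxylate carriers were measured and none was called. Slc25a1, the citrate carrier that exports acetyl units for lipid synthesis, read 5.76, 6.45, 6.33 and 5.65 in controls and 5.89, 6.21, 6.30 and 6.53 after oxaliplatin (difference 0.19, 95% interval -0.31 to 0.68). Slc25a10, the dicarboxylate carrier, read 7.56, 7.93, 7.49 and 6.26 in controls and 7.30, 7.44, 7.25 and 7.04 after oxaliplatin (difference -0.05, interval -0.79 to 0.69). Slc25a11, the oxoglutarate carrier of the malate-aspartate shuttle, read 7.49, 7.71, 7.51 and 6.57 in controls and 6.94, 7.26, 7.32 and 7.30 after oxaliplatin (difference -0.11, interval -0.66 to 0.43). For Slc25a10 and Slc25a11 control replicate 4 was the lowest of the 8 arrays and the other controls lay above every oxaliplatin array. Without control replicate 4 the differences were -0.40 (adjusted p 0.099) for Slc25a10 and -0.36 (adjusted p 0.087) for Slc25a11. Without control replicate 2 they were 0.16 and 0.02, so neither direction is settled. Slc25a21, the oxodicarboxylate carrier, differed by -0.37 (adjusted p 0.248).

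Of the 10 measured amino acid and carnitine carriers, 4 were called, Slc25a20 higher and Slc25a29, Slc25a48 and Slc25a38 lower, beside the 18.6% called over all measured genes. Slc25a20 is the carnitine-acylcarnitine carrier, which takes long-chain acyl groups into the matrix for oxidation. It read 6.39, 7.12, 6.18 and 5.29 in controls and 7.33, 7.81, 7.83 and 7.54 after oxaliplatin. The lowest oxaliplatin array lay above the highest control, control replicate 2. The rise was 1.38 ± 0.34, or 2.61-fold (limma adjusted p 0.029).

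The rise of Slc25a20 rests on the brightest probe, the custom one shown above. Its catalogue probe differed by 0.11 (adjusted p 0.755 over all probes), and with the mean over both probes the gene's difference was 0.75 with an adjusted p of 0.080. Which transcripts each probe detects was not tested. The call was also lost without control replicate 3 or without oxaliplatin replicates 2, 3 or 4 in turn (1.32 to 1.41, adjusted p 0.064 to 0.077). Within the first run name the difference was 1.44 with an adjusted p of 0.128. Of the enzymes that work beside this carrier, Cpt2, which hands acyl groups back to coenzyme A in the matrix, differed by 0.65 (adjusted p 0.089), and Cpt1a, which loads them onto carnitine outside, by 0.11 (adjusted p 0.796).

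Slc25a29 carries basic amino acids. It read 1.51, 1.70, 1.86 and 2.57 in controls and 0.91, 1.08, 1.39 and 1.03 after oxaliplatin, and the groups did not overlap. The fall was 0.81 (SE 0.23, 1.75-fold, limma adjusted p 0.043), and the gene's 3 probes, none sharing such a stretch, lay between -0.85 and -0.77. Slc25a48, a choline carrier of the same subfamily, read 1.99, 1.56, 1.85 and 1.43 in controls and 0.65, 1.14, 1.21 and 1.17 after oxaliplatin. The groups were separate, oxaliplatin replicate 1 lay below the rest, and the fall was 0.67 (SE 0.17, 1.59-fold, adjusted p 0.034). Both of its probes were called.

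Slc25a38 imports glycine, the starting material of heme synthesis. It read 5.70, 5.74, 5.77 and 5.66 in controls and 5.18, 5.42, 5.50 and 5.42 after oxaliplatin. The fall was small but the groups were separate, at 0.34 (SE 0.10, 1.26-fold, limma adjusted p 0.045). In the fit over all probes its second probe was called, at -0.55 (limma adjusted p 0.014). The brightest probe was not called in that fit (adjusted p 0.058). These 3 falls were near the threshold. Without control replicate 3 or any 1 oxaliplatin array the adjusted p was 0.066 to 0.094 for Slc25a29, 0.060 to 0.089 for Slc25a48 and 0.074 to 0.109 for Slc25a38. The call was also lost without control replicate 2 for Slc25a29 (0.053), without control replicate 1 for Slc25a48 (0.066), and without control replicates 1, 2 or 4 for Slc25a38 (0.071, 0.084 and 0.054). Within the first run name the differences were -0.70, -0.52 and -0.26, with adjusted p of 0.212, 0.153 and 0.20.

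The carriers that serve the urea cycle and the malate-aspartate shuttle were not called. Slc25a13, the aspartate-glutamate carrier of liver, read 8.54, 8.97, 8.60 and 7.60 in controls and 8.42, 8.58, 8.76 and 8.52 after oxaliplatin. Its difference of 0.14 had an interval of -0.46 to 0.75, with control replicate 4 the lowest of all arrays. Without that array it was -0.13 (adjusted p 0.534), so its direction rests on 1 array. Slc25a15, the ornithine carrier, read 3.88, 4.40, 4.36 and 3.16 in controls and 3.61, 3.40, 3.53 and 3.59 after oxaliplatin. Control replicate 4 was below every oxaliplatin array and the other controls above them. The difference was -0.42 with an adjusted p of 0.277, and without control replicate 4 it was -0.68 with an adjusted p of 0.025, past the threshold.

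Slc25a22, a glutamate carrier, read 4.997, 5.90, 5.23 and 4.24 in controls and 5.72, 5.48, 5.51 and 5.22 after oxaliplatin (difference 0.39, adjusted p 0.398, and 0.11 without control replicate 4), and its groups overlapped. Slc25a18, the other glutamate carrier, was well above background on only 2 arrays of each group and differed by 0.64 (adjusted p 0.199). The aspartate-glutamate carrier Slc25a12 and the branched-chain amino acid carrier Slc25a44 differed by -0.10 and -0.04 on their brightest probes. In both genes the second probe was called, at -0.67 for Slc25a12 and 0.52 for Slc25a44. The first 30 bases of these disagreeing probes are given, and neither pair shares a stretch of 20 bases, so no letters are in capitals.
Slc25a12, brightest probe (-0.10): ggtcaggatgttgcaagagtaaagtttgga
Slc25a12, second probe (-0.67): cgtgttgaaatgttttctgagccttggcat
Slc25a44, brightest probe (-0.04): ctcgaggagattagctgcgaatattcactg
Slc25a44, second probe (0.52): ccaaaacagctagaaatgttgacccattgg

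All 3 relatives of the uncoupling proteins were measured, and they held both the largest rise and the largest fall of the family. Slc25a30, a carrier described in kidney mitochondria, read -1.04, -0.27, -1.25 and -0.53 in controls and 0.45, 0.55, 1.83 and 1.34 after oxaliplatin. Every oxaliplatin array lay above every control, and within the oxaliplatin group replicates 1 and 2, of the second run name, were lower than replicates 3 and 4. The rise was 1.82 ± 0.35, or 3.52-fold (limma adjusted p 0.014). The brightest probe was well above background on all 8 arrays. The separate catalogue probe, well above background on 2 control and 3 oxaliplatin arrays, differed by 1.53, and the overlapping custom probe, on 3 control and all 4 oxaliplatin arrays, by 2.09. Both were called, but their sizes rest in part on signals not above background. Within the first run name the rise was 2.36 with an adjusted p of 0.028, the only Slc25a call in that comparison, in which 3.7% of all genes were called. With normexp background correction it was 0.81 (adjusted p 0.023).

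Slc25a27, also known as Ucp4 and best known from brain, read 0.63, 0.81, 0.25 and 1.34 in controls and -0.10, -0.39, -0.25 and -0.57 after oxaliplatin. Every oxaliplatin array lay below every control. The fall was 1.09 (SE 0.22, 2.13-fold, limma adjusted p 0.017), on a probe on the minus strand at chr17:43779088-43779147 on mm9. All 3 kept probes of the gene were called, and no 2 of them share a stretch of 20 bases. The dimmest of them was well above background on all 4 controls and on no oxaliplatin array, which makes it at least 1.63-fold lower there when the oxaliplatin arrays are set to the lowest signal well above background or to the probe's own signal where that was higher. Within the first run name the fall of the brightest probe was 1.17 with an adjusted p of 0.084, and with normexp background correction it was 0.61 (adjusted p 0.012). Slc25a14, the third of these genes, differed by 0.04 (95% interval -0.30 to 0.38). Of the uncoupling proteins outside the naming rule, Ucp2 differed by -0.34 (adjusted p 0.531), and Ucp1 and Ucp3 were below the filter.

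**Figure D2:**
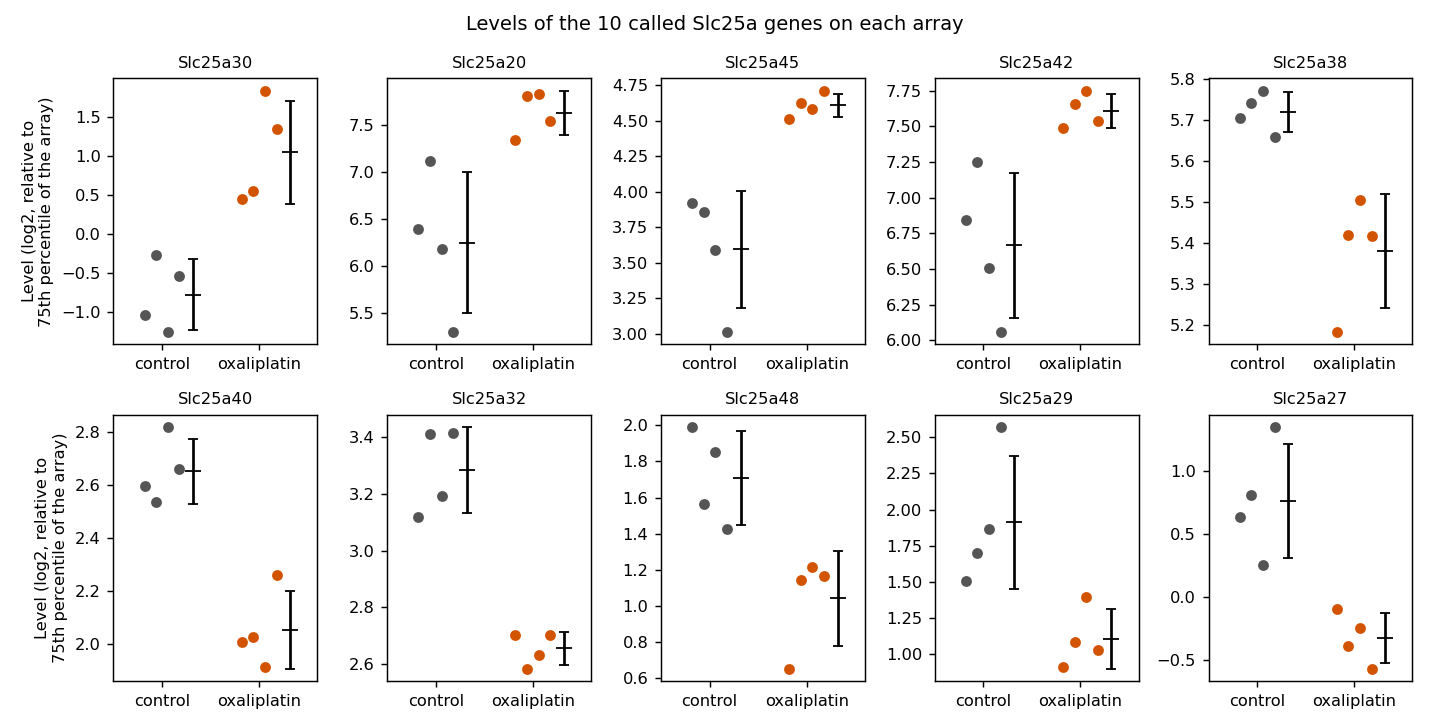
Level of each of the 10 called Slc25a genes on every array (log2 relative to the array's 75th percentile, vertical axis, with a scale of its own in each panel); grey points are the 4 control and orange points the 4 oxaliplatin arrays in replicate order, and the black bar is the group mean ± SD. In all 10 panels the groups do not overlap. The controls of Slc25a20, Slc25a42, Slc25a45, Slc25a27, Slc25a29 and Slc25a32 spread more widely than the oxaliplatin arrays, and those of Slc25a30, Slc25a40, Slc25a48 and Slc25a38 do not.

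The iron and glutathione carriers were all measured, and 1 of 4, Slc25a40, was called. Slc25a40 and Slc25a39 bring glutathione into mitochondria, and Slc25a28 and Slc25a37 are the mitoferrins, which import iron for heme and iron-sulfur clusters. Slc25a40 read 2.59, 2.53, 2.82 and 2.66 in controls and 2.01, 2.03, 1.91 and 2.26 after oxaliplatin. The groups were separate, and the fall was 0.60 (SE 0.11, 1.52-fold, limma adjusted p 0.012), with a second probe also called at -0.48. Within the first run name the difference was -0.57 with an adjusted p of 0.091.

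Slc25a28, the mitoferrin found in most tissues, read 5.29, 5.24, 5.32 and 5.62 in controls and 4.83, 5.01, 5.11 and 4.98 after oxaliplatin. Its groups were separate and the difference of -0.39 ± 0.12 lay just outside the threshold (adjusted p 0.051). With the mean over its 2 probes it was -0.44 with an adjusted p of 0.039. Slc25a39 was also separate between groups, at -0.26 ± 0.10 (adjusted p 0.111). Slc25a37, the mitoferrin of developing red cells, read 4.39, 4.80, 4.96 and 4.70 in controls and 4.21, 5.07, 4.83 and 4.89 after oxaliplatin, and the groups overlapped fully (difference 0.04, interval -0.43 to 0.50, with a sign that depends on single arrays).

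Red cell markers were measured beside these carriers. Of 8 measured, 4 were higher and Klf1 was lower (-0.61, limma adjusted p 0.014), beside 6.99% and 11.6% of all measured genes. The higher ones included Alas2, the red cell form of the first heme enzyme (2.39, limma adjusted p 0.005), and Hbb-bs (1.94, adjusted p 0.022). The summed level of the 8 markers ranged from 9.47 to 11.8 in controls and from 11.5 to 12.5 after oxaliplatin, while Gata1 and Epb42 were below the filter. Fech, which inserts the iron that completes heme, fell by 0.37 (limma adjusted p 0.041), and Alas1 differed by -0.16 (adjusted p 0.777). The Fech call ended under 14 of 21 other ways of processing the arrays, described below. The part of red cells in the values of Slc25a37, Slc25a38 and Slc25a28 was not tested.

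Among the carriers with less settled substrates, 1 of 5 measured genes was called. Slc25a45 read 3.92, 3.86, 3.59 and 3.01 in controls and 4.51, 4.62, 4.58 and 4.71 after oxaliplatin. The oxaliplatin arrays lay close together and above every control, and the rise was 1.01 ± 0.19, or 2.02-fold (limma adjusted p 0.014). Its second probe differed by 0.56 and missed the threshold (adjusted p 0.068). The rise held without each array in turn, and within the first run name it was 1.06 with an adjusted p of 0.084.

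Slc25a47, a carrier expressed mainly in liver, read 8.22, 9.34, 8.65 and 7.997 in controls and 9.38, 8.98, 9.32 and 9.23 after oxaliplatin. Control replicate 2 lay within the oxaliplatin range and the other controls below it. The difference was 0.68 ± 0.27 with an adjusted p of 0.112, and without control replicate 2 it was 0.94 with an adjusted p of 0.019, past the threshold. Slc25a34 differed by 0.85 with the widest control SD of the family (1.01, adjusted p 0.212), Slc25a35 by -0.34 (adjusted p 0.105), and the outer membrane protein Slc25a46 by 0.28 (adjusted p 0.353).

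The 7 genes below the filter were Slc25a2, Slc25a31, Slc25a36, Slc25a41, Slc25a43, Slc25a53 and Slc25a54. No probe of Slc25a31, the translocase of male germ cells, or of Slc25a41, Slc25a53 or Slc25a54 was well above background on any array. For Slc25a2 and Slc25a36 no probe passed on more than 2 oxaliplatin arrays or 1 control array, and for Slc25a43 the most was 1 oxaliplatin array. No difference is given for them.

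Separate probes of a gene allow a look at the same RNA from another place in the transcript. Of the 34 measured genes with more than 1 kept probe, 25 had all differences on the same side of 0. Among 88 kept Slc25a probes 21 were called, against 18.4% of all kept probes. All 9 called genes with several kept probes had the same direction in each, and in 5 of them, Slc25a27, Slc25a30, Slc25a40, Slc25a42 and Slc25a48, every kept probe was called. This tally includes the brightest probes, on which the genes were called, and is no count of independent measurements. The brightest and the custom probe of Slc25a30 share 59 bases. The dimmest Slc25a27 probe passed the filter through the 4 control arrays alone. The widest spreads were those of Slc25a20 (0.11 to 1.38), Slc25a10 (-0.05 to 1.07) and Slc25a37 (-0.61 to 0.20). In 8 genes a pair of probes overlapped. The Slc25a46 pair has the same 60 bases under different names, and its differences were -0.22 and 0.10, with both not called.

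**Figure D3:**
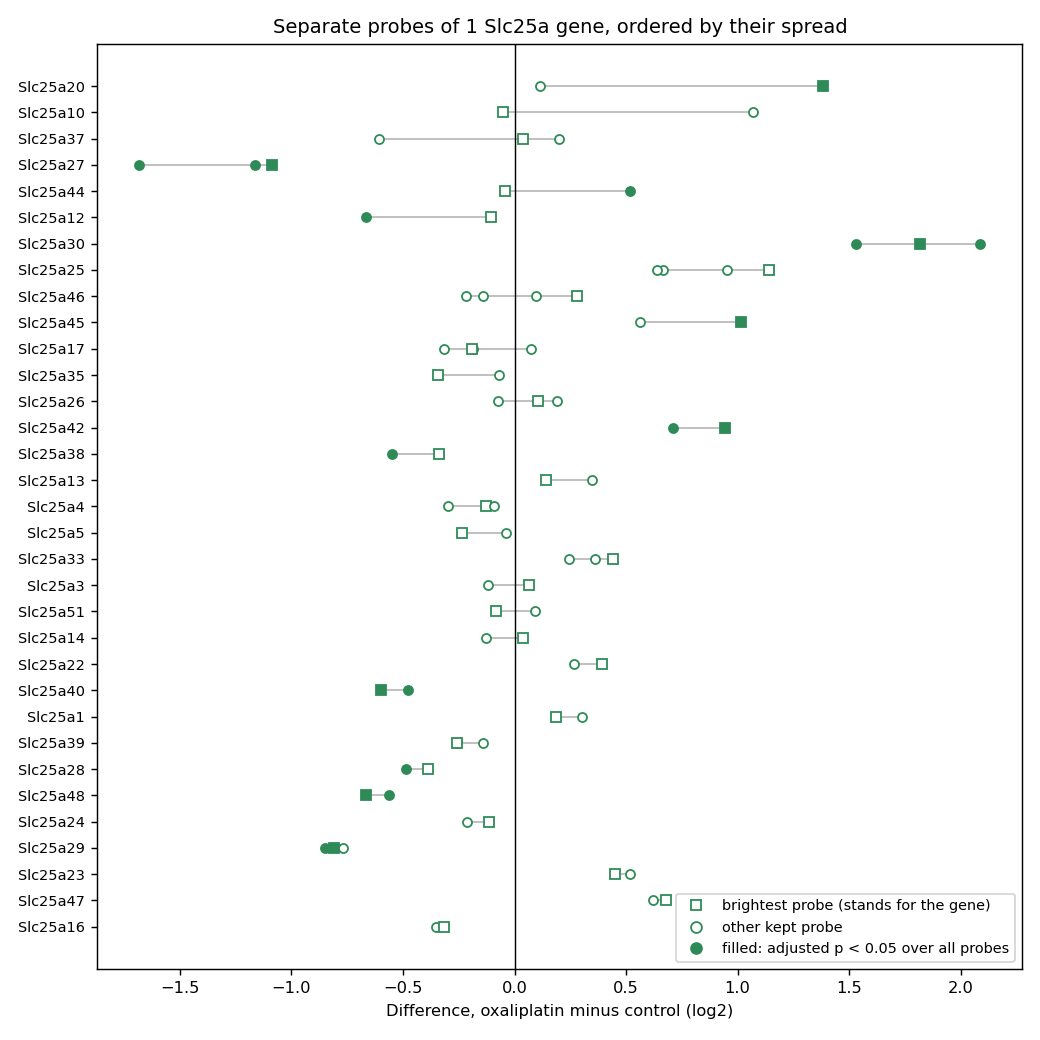
Difference between oxaliplatin and control (log2, horizontal axis) for each kept probe of 33 of the 34 Slc25a genes with several probes, ordered from the widest to the narrowest spread; squares are the brightest probe, which stands for the gene, circles are the others, and filled symbols were called over all probes. Slc25a20 is at the top with 0.11 and 1.38, while all 3 probes of Slc25a30 and of Slc25a27 are filled.

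Genes that import, neighbour or regulate the carriers were counted from lists. Of 16 measured genes of the carrier import route, 2 were called, both lower: Tomm20, a receptor of the outer membrane (-0.58, limma adjusted p 0.027), and Agk, a subunit of the carrier translocase (-0.49, adjusted p 0.018). Their list had a median difference of -0.07. Of 21 measured other carriers and channels of mitochondria, only the sideroflexin Sfxn2 was called (-0.57, adjusted p 0.021), with a list median of -0.13. Of 21 enzymes that work with the carriers, only Fech was called, with a list median of -0.01. Under the 21 other ways of processing, the calls of Tomm20, Sfxn2 and Agk ended under 8, 5 and 4. These counts are to be read beside the median of -0.09 and the 18.6% called over all measured genes.

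Of 13 regulators of mitochondrial biogenesis, 2 were called (15.4%), both lower, against 18.6% of all measured genes. The count is no result about the regulators as a set. Ppargc1a, a coactivator of mitochondrial and gluconeogenic genes, read 4.22, 3.80, 3.31 and 3.29 in controls and 2.68, 2.56, 2.71 and 2.45 after oxaliplatin, a fall of 1.05 (SE 0.21, 2.08-fold, limma adjusted p 0.015) with separate groups. Tfb1m, a methyltransferase of mitochondrial ribosomal RNA, fell by 0.49 (adjusted p 0.022). The Tfb1m call ended under 10 of the 21 other ways of processing, and that of Ppargc1a under 3. Ppara, the receptor that drives fatty acid oxidation genes, read 6.28, 7.07, 6.62 and 5.23 in controls and 7.23, 7.30, 7.45 and 7.28 after oxaliplatin. Its groups were separate, but the difference of 1.01 ± 0.34 missed the threshold (adjusted p 0.072), and control replicate 4 was again the lowest. Nrf1 (-0.25), Gabpa (0.03), Tfam (-0.07) and Esrra (-0.01) did not pass.

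Markers of liver cell types were counted as well, beside 6.99% of all measured genes called higher and 11.6% called lower. Of 8 hepatocyte markers 3 were higher (Alb 0.56, Trf 0.57 and Ttr 1.29), and their summed level ranged from 12.6 to 12.7 in controls and from 12.9 to 13.1 after oxaliplatin. Alb and Trf changed sign when arrays were centred on the median of all probes, to -0.07 and -0.05, and neither was called there. Platelet markers were lower in 3 of 5 (Itgb3 -2.12, Pf4 -1.78 and Itga2b -1.48), with sums of 5.18 to 6.70 in controls and 3.63 to 4.09 after oxaliplatin. Ppbp (-2.12) and Gp9 (-1.17) were not called. The Pf4 call ended under 8 of 21 other ways of processing and that of Itga2b under 13 of 20, while that of Itgb3 ended under none. Leukocyte markers were higher in 2 of 6 (Csf1r 1.47 and Cd3e 0.67). Clec4f (0.59), Ptprc (0.43) and Adgre1 (0.36) were not called. Ly6g went the other way and was not called (-0.84, limma adjusted p 0.161), and Cd79a and Ncr1 were below the filter. Leukocyte sums were 7.38 to 7.78 in controls and 7.78 to 8.76 after oxaliplatin. The sums for endothelial, stellate and bile duct markers overlapped between groups, though the endothelial marker Lyve1 fell by 1.49 (limma adjusted p 0.010). The part of these cells in the Slc25a differences was not tested.

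Promoter sequences were searched for motifs in all members for which they were found, whatever the result of the gene. RefSeq promoter windows on GRCm38.p6, 250 bases before to 50 after a gene's start, were found for 36 of the 47 genes, by symbol, and for 27025 genes in all. Each motif was searched on both strands. CCAAT, the site of the factor NF-Y, was in a window of 19 of the 36 genes (52.8%), against 41.1% of all genes. GCGCA followed after any 1 base by GCGC, the site of the factor Nrf1, was in 2 (Slc25a3 and Slc25a31, 5.56%), against 5.19%. AGGTCA repeated in the same direction after any 1 base, the element bound by Ppara and Hnf4a, was in none of the 36 and in 0.0481% of all genes, and TCAAGGTCA, the site of Esrra, in none and in 0.466%. The windows of Slc25a20 and Slc25a45 held none of these motifs.

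The 250 bases before the start are shown for the other rising genes, Slc25a42, at chr8:70212282-70212531, and Slc25a30, at chr14:75787038-75787287, both on the minus strand of GRCm38.p6. Capitals mark CCAAT or its reverse complement ATTGG. Slc25a42 held 5 such matches, which 0.311% of all genes reach or pass, and Slc25a30 held 1. Among the falling genes Slc25a29 held 2, Slc25a38, Slc25a40 and Slc25a48 held none, and no window was found for Slc25a27 and Slc25a32. Slc25a28, which was not called, held 3. A match describes the sequence and does not show binding.
Slc25a42: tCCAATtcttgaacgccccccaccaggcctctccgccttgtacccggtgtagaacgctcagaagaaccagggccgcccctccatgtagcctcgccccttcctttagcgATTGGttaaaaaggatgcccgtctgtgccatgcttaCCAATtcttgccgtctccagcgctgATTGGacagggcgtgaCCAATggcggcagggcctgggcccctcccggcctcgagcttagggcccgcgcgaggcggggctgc
Slc25a30: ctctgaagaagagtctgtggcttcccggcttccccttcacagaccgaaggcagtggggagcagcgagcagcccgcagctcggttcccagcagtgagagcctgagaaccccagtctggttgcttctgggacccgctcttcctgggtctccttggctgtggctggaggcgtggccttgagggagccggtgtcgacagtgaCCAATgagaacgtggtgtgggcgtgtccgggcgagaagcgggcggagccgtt

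The 10 calls differed in how they fared under 21 other ways of processing the arrays, and no call changed direction under any of them. Slc25a30 was called under 20 of the 21 and Slc25a32 under 19, Slc25a45 under 17, and Slc25a27 under 17 of the 20 in which it was tested. Slc25a40 was called under 18. The calls of Slc25a20 and Slc25a42 each ended under 9, and those of Slc25a48, Slc25a29 and Slc25a38 under 12, 13 and 16.

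**Figure D4:**
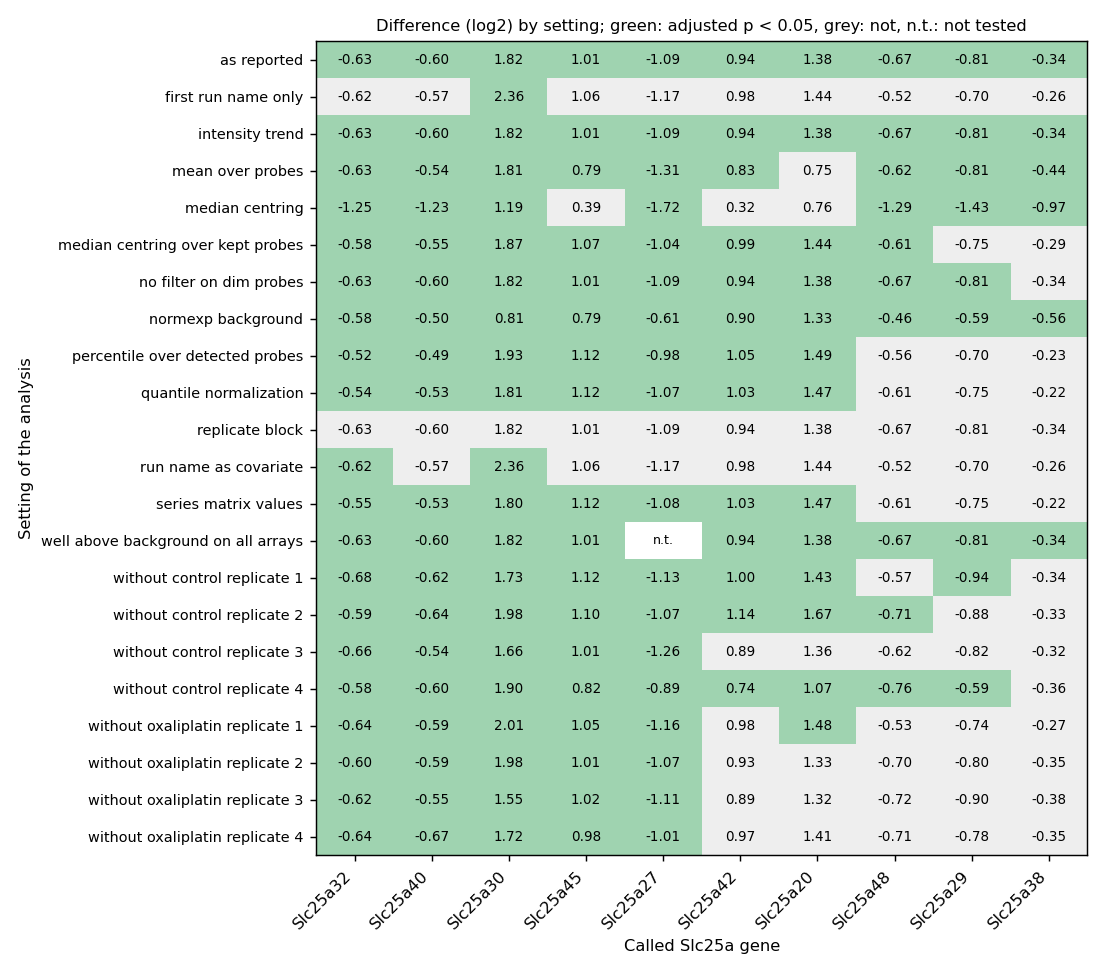
Difference between oxaliplatin and control (log2, printed in each cell) for the 10 called Slc25a genes (columns, ordered by adjusted p) as reported and under 21 alternatives (the other lines of the grid); green cells have an adjusted p under 0.05 and grey cells do not. The signs stay the same down each column, the replicate block is grey throughout, and within the first run name only Slc25a30 is green.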

How the data were processed

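Agilent Feature Extraction is named with version 10.7, together with limma, in the submitters' processing notes, while version 12.0.3.1 stands in the scanner files, per the file headers. The deposited processed signal, mean signal and local background are fluorescence intensity on a linear scale, per the file headers, not normalized between arrays. Flags for spots well above background were used as deposited. The deposited series matrix holds log2 values whose scaling between arrays is not given in the sources used here. Across probes their correlation with log2 processed signals was 0.9964 to 0.9998 on each array.

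From log2 processed signals, the 75th percentile of the non-control probes of the same array was subtracted. Outlier spots were left out, and probes well above background on at least 4 of 8 arrays were kept (54636). Of 48257 probes with a curated RefSeq accession, 47985 were named through RefSeq's gene table (for names alone, assembly GRCm38.p6), and each gene was represented by its brightest probe. The test was limma's moderated fit (limma 3.58.1, lmFit then eBayes, R 4.3.3), with Benjamini-Hochberg adjustment over all 13913 genes and a threshold of 0.05. The number of arrays, 4 a group, limits the precision. The labels call these biological replicates, and nothing says how the animals were housed or handled.

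Summed levels of a marker list are log2 of its members' summed linear signals. The Slc25a genes given on every array are the called ones and 14 that were set whatever their result. Of other lists the members past the threshold are named, up to 5 a list, and Ppargc1a is also given on every array, a choice made once its values were known. Ppara, likewise on every array, Cpt2, Cpt1a and other well-known members were added once their values were known. The members and lists were chosen with earlier results of these data known. The values of 1 measured Slc25a gene are not reported here, though it is in the counts. The fit was tested on simulated data. Replicate numbers did not pair the arrays. Of 83 probe pairs within a gene, overlaps were sought as shared stretches of at least 20 bases. Tables were made with pandas 2.3.3 under Python 3.11.15, and plots with matplotlib 3.10.9.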

Additional observations from a re-analysis of the deposited data

Results flagged for a closer look

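In 7 of the 80 groups of 4 arrays examined (control and oxaliplatin for each of the 40 measured Slc25a genes), 1 array stood apart from the other 3 by more than Dixon's 95% critical value for the gap over the range, which chance gives in about 1 of 20 groups. Control replicate 4 was lowest for Slc25a23 (4.49, with the next control at 5.63) and highest for Slc25a51 (5.21, next 4.51). Control replicate 3 was highest for Slc25a17 (6.74, next 6.19). Oxaliplatin replicate 1 was lowest for Slc25a11 (6.94, next 7.26), Slc25a23 (5.67, next 5.88) and Slc25a48 (0.65, next 1.14), and oxaliplatin replicate 3 was lowest for Slc25a24 (0.37, next 0.77). Of these genes only Slc25a48 was called, and oxaliplatin replicate 1, which stood apart there, is on the side of the fall. Without it the fall was 0.53 with an adjusted p of 0.060 (limma).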

How the results depend on the processing

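As reported, 4 Slc25a genes were called higher and 6 lower, and 37.6% of the calls over all genes were rises. The counts were 1 and 0 within the first run name and 1 and 1 with a covariate for run name. Centring on the median of all probes, which moved the median gene by -0.63, gave 1 and 24, and only 2.32% of all calls were rises. There Slc25a3 turned to -0.56, past the threshold. The percentile over detected probes gave 4 and 3 (shift 0.11, 60.5% rises). No filter on dim probes gave 5 and 5 (67.6% rises), over a larger set of 21252 genes whose median was 0.18 higher. Rises made up 20.8% of calls with normexp, 50% with quantile normalization, 49.3% with the series matrix values and 47.7% with median centring over kept probes, an alternative added after the data were seen. With each array left out in turn the counts ranged from 2 to 6 higher and from 3 to 7 lower, with 2 and 3 when control replicate 3 or oxaliplatin replicate 2, 3 or 4 was left out. With the replicate number as a block in limma 0 and 0 were called, 14 members having an unadjusted p under 0.05. That number is only a label here: same-numbered arrays deviated with correlations of -0.32 to -0.08. Under this block 266 genes were called higher and 263 lower, against 973 and 1617. Causes of these changes were not tested. Over 23 named genes, 394 values kept their side of the threshold, 25 of them with the other sign and none of these in a called gene, while 72 lost and 15 gained the call and 1 reversed. Slide could not be fitted, and signals near background limit what Slc25a30, Slc25a27, Slc25a18 and the dimmer probes of Slc25a29 can show.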
